A study of Mus musculus with 26 samples.

Results

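Nucleolar ribosome biogenesis genes encode the proteins that make ribosomal RNA (rRNA) and assemble it with ribosomal proteins. The 43 genes described here were named as a module, and each was read from rows that the annotation gives to that symbol alone, using the probe set that was brightest on average. Of these, 42 of 43 were measured among 19937 genes tested in all, and Noc2l, a 60S assembly factor, had no such row. The module was chosen by function and not by any measured value, but with earlier results of these data known.

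Expression was measured on 26 Affymetrix gene arrays of mouse cells, all of strain C57BL/6, in a study of the leukaemia fusion MLL-AF9. Long-term haematopoietic stem cells (LT-HSC, n = 4) and granulocyte macrophage progenitors (GMP, n = 4) had been sorted by flow cytometry from the bone marrow of wild-type mice and were not treated. The other arrays came from lines immortalized from LT-HSC or from GMP and cultured in liquid medium, some of them with doxycycline (dox) added. LT-HSC lines, as they are called here, were measured with dox at 48 h (n = 2, lines B6-2 and B6-3) and 72 h (n = 3, with B6-1 in addition), and in the same 3 lines without it (n = 3 at each time). GMP lines were measured at 48 h with dox (n = 4, lines B6-2, B6-3, F6-6 and B6-1) and without (n = 3, no B6-1). Line names here are the tags that end the sample titles, and B6-1, B6-2 and B6-3 occur with both origins. In lines of this kind dox is known to switch on an MLL-AF9 transgene, but the labels name no construct. The labels do not say if the hours started when dox was added or when it was taken away.

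Eukaryotic ribosomes are assembled in the nucleolus. RNA polymerase I (Pol I) transcribes a long precursor rRNA, small nucleolar ribonucleoproteins (snoRNPs) methylate and pseudouridylate it, and large sets of assembly factors cut and fold it into the 40S and 60S subunits. Dividing progenitors need this output, and the transcription factor MYC, which binds DNA with MAX at the E-box, is known to activate many of these genes.

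Promoters were looked up because so many of the genes moved in one direction between the cultures. RefSeq (GRCm38.p6) windows from 250 bases before to 50 bases after the gene start were matched for 37 of the 43 genes, and Bop1, Rrp12, Utp6, Npm1, Rrs1 and Fbl had no window. Some genes, Pus7 among them, had several windows, and a gene was counted if any of them held a match. The MYC and MAX E-box CACGTG, which reads the same on both strands, was found in 11 of the 37 (29.7%), once in each. It was found in 8.09% of the 27025 genes with a window, and in 11.8% of the 8430 tested genes with a mean signal above the array-wide median. Upstream sequence follows for Nop2, an rRNA methyltransferase gene with an E-box at position -60 from its start, and for Nop56, a box C/D gene with none in its window. Capitals mark CACGTG and the ETS core CGGAAG on either strand, of which the Nop2 sequence holds 1 and 3 and the Nop56 sequence none.
Nop2 (chr6:125131633-125131882, plus strand): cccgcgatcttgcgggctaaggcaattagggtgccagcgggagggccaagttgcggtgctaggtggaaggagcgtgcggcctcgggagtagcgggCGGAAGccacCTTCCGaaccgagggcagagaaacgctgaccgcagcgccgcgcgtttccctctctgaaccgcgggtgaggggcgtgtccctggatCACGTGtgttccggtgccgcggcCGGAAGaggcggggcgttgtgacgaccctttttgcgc
Nop56 (chr2:130274162-130274411, plus strand): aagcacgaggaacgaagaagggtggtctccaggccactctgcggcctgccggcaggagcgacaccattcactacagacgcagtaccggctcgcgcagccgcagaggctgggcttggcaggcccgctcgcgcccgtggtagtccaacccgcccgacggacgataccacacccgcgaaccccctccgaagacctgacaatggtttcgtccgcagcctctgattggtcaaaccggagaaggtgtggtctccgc

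Of the 11 E-boxes, 3 began before the gene start and 8 after it. The 30-base windows of 5 of them follow, chosen to show both positions, with the E-box in capitals. Counted in bases from the gene start, the matches began at -121 in Imp4, at -20 in Utp18, at 24 in Tsr1, at 17 in Wdr43 and at 28 in Pus7. The other promoter window of Pus7 held no E-box.
Imp4 (chr1:34439696-34439725, plus strand): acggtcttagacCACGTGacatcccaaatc
Utp18 (chr11:93885769-93885798, minus strand): gcgagcgccggtCACGTGgcttgcggcggc
Tsr1 (chr11:74898092-74898121, plus strand): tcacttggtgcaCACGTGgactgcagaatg
Wdr43 (chr17:71616220-71616249, plus strand): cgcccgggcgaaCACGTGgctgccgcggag
Pus7 (chr5:23783666-23783695, minus strand): ggcgcagcgccgCACGTGtgcgagcccggc

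Other elements were searched on both strands with the same rule, each on its own, so that matches of different elements may overlap. The GC box GGGCGG was in 81.1% of the 37 genes, against 67.9% of the brighter tested genes. CGGAAG was in 59.5% against 36.5%, CCAAT in 37.8% against 42.5% and TATAAA in 5.41% against 8.62%. These are counts of letters and do not show binding. Genes with and without the E-box had like medians in the dox comparison described next: 0.48 over 11 with it and 0.53 over 25 measured genes without it.

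The module was highest on dox-treated GMP lines and sorted GMP and lowest on GMP lines without dox. All values are log2 signals as deposited, differences are log2 differences ± the standard error (SE) of the fit, and called means that limma gave an adjusted p under 0.05 (Benjamini-Hochberg, over the whole array). As a mean over the 42 genes, signal was 8.74 ± 0.05 (SD, n = 4) in GMP lines with dox and 8.72 ± 0.07 (n = 4) in sorted GMP. Means of 8.66 ± 0.11 (n = 2) and 8.61 ± 0.07 (n = 3) were found in LT-HSC lines with dox at 48 h and 72 h. Those of the same lines without dox were 8.59 ± 0.07 (n = 3) at 48 h and 8.38 ± 0.05 (n = 3) at 72 h, and sorted LT-HSC lay at 8.51 ± 0.02 (n = 4). GMP lines without dox lay lowest at 8.27 ± 0.19 (n = 3). Neighbours in this order differ by less than their spread from GMP lines with dox down to LT-HSC lines without dox at 48 h. Of single genes, 27 had their lowest group mean in GMP lines without dox, 10 in sorted LT-HSC and 5 in LT-HSC lines without dox at 72 h. The highest group mean was that of GMP lines with dox for 19 genes and of sorted GMP for 16, with 5 in sorted LT-HSC.

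**Figure D1:**
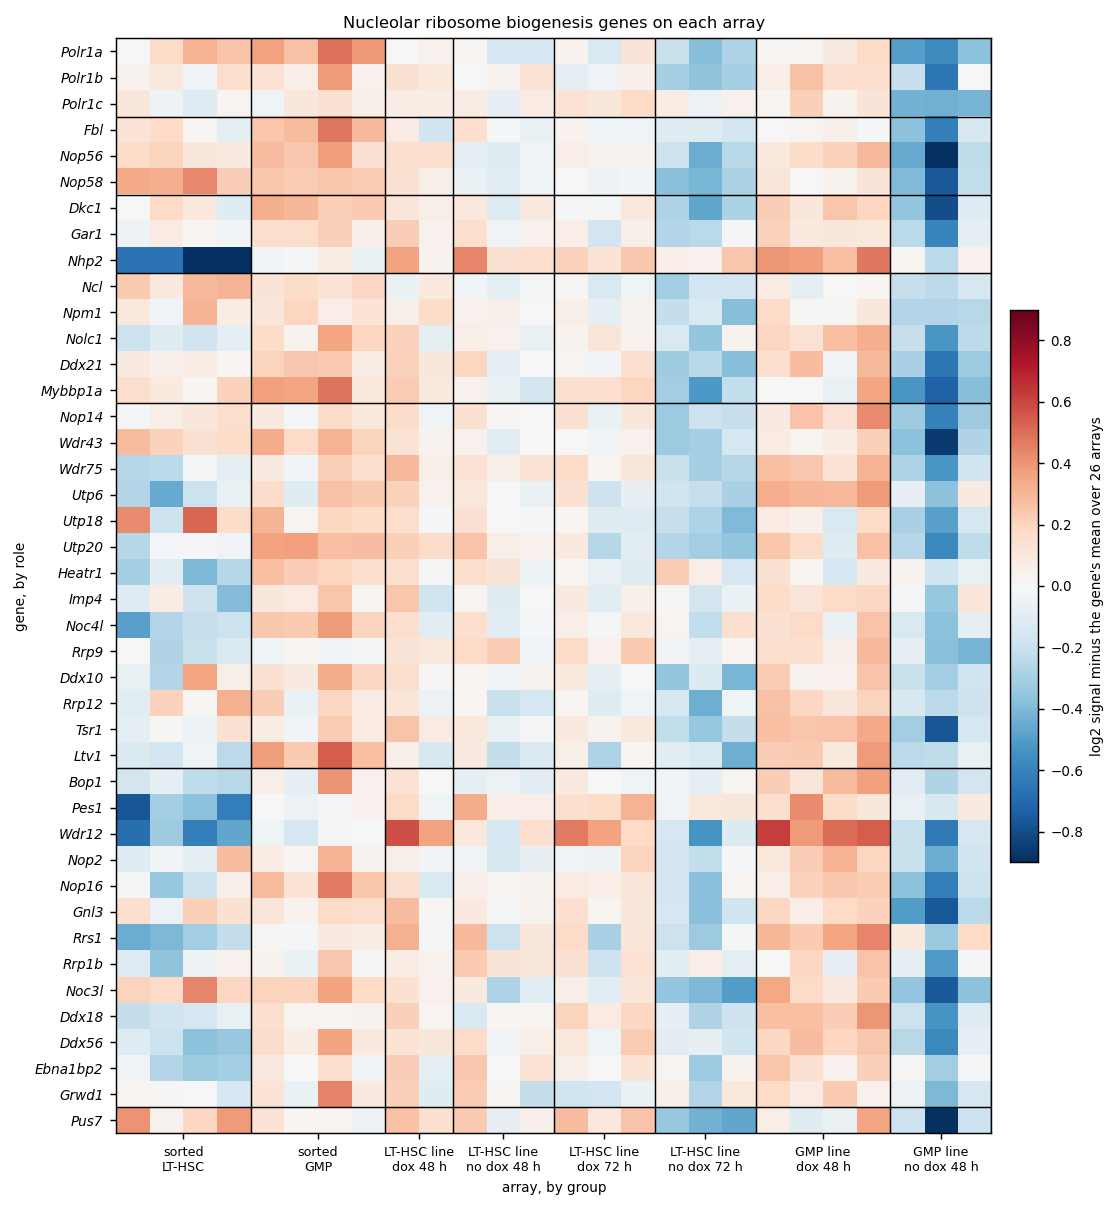
Heat map of the 42 genes (rows, ordered by role with lines between roles) on the 26 arrays (columns, by group), as log2 signal minus the gene's mean over all arrays, with colours ending at 0.9 either way. The middle array of GMP lines without dox (line B6-3) is the lowest of its group for most genes, while Nhp2, Pes1 and Wdr12 are lowest in sorted LT-HSC.

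Most of the module was bright compared with the rest of the array. Array medians lay between 5.81 and 5.91, Rrp9 was the gene with a group mean under the overall median of 5.86 (in 1 of 8 groups), and the dimmest genes were Rrp9 (6.04 over all arrays), Bop1 (6.05), Grwd1 (6.23) and Rrp12 (6.42). Ncl (11.4) and Npm1 (11.3), which encode the abundant nucleolar proteins nucleolin and nucleophosmin, had the brightest probe sets. Levels of different probe sets are not comparable between genes.

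GMP lines at 48 h show the clearest difference. With dox, 33 of 42 genes were called higher and none lower, where 5.75% of all genes were called higher and 5.18% lower. All 42 differences were positive, with a median of 0.47 (range 0.10 to 0.84) against a median of 0.01 over all genes. All dox arrays lay above all arrays without dox for 40 of the 42, against 11% of all genes. In the same 2 groups, 7 of 9 late neutrophil markers fell, and their mean ranged from 7.86 to 8.07 with dox and from 10.4 to 10.5 without. Monocyte and macrophage markers were lower for 5 of 7 (mean 7.23 to 8.64 with dox and 8.62 to 9.81 without). Their part in the module's difference was not tested, and in bulk samples fewer cells of a type and less RNA per cell cannot be told apart. Leaving out line B6-3 without dox, the lowest array of the group, left 23 of the 42 called.

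All 3 measured Pol I subunits rose with dox in these lines. Polr1a, the largest subunit, read 7.60, 7.61, 7.66 and 7.76 with dox and 7.09, 7.01 and 7.21 without, a difference of 0.55 ± 0.08 (adjusted p = 6.34e-05). Every dox array lay above every array without dox. Polr1b, the second largest subunit, rose by 0.45 ± 0.10 (adjusted p = 0.00534), and Polr1c, a subunit shared with Pol III, by 0.52 ± 0.07 (adjusted p = 1.04e-05). Among 13 other genes of the Pol I machinery, 2 rose and none fell: Tcof1, the treacle gene, by 0.40 ± 0.10 and Rrn3, the initiation factor, by 0.38 ± 0.08 (adjusted p = 0.00712 and 0.00266).

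All 6 measured genes of both snoRNP classes in the module rose. Nop56, a core protein of the box C/D particles that methylate rRNA, read 10.18, 10.26, 10.30 and 10.39 with dox and 9.64, 9.15 and 9.87 without. The groups did not overlap, and the lowest of the 7 arrays was line B6-3 without dox. Nop56 rose by 0.73 ± 0.11 (adjusted p = 5.08e-05), its partner Nop58 by 0.52 ± 0.08 and the methyltransferase fibrillarin (Fbl) by 0.39 ± 0.09 (adjusted p = 0.000144 and 0.00489). The other probe set of Fbl gave 0.12 and was not called (adjusted p = 0.628). In the box H/ACA particles, which make pseudouridine, the synthase dyskerin (Dkc1) rose by 0.61 ± 0.11, Gar1 by 0.43 ± 0.09 and Nhp2 by 0.44 ± 0.11 (adjusted p = 0.000342, 0.00282 and 0.00693).

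Of the abundant nucleolar proteins and regulators of ribosomal DNA, 4 of 5 rose. Mybbp1a, a nucleolar Myb-binding protein, rose by 0.62 ± 0.10, the RNA helicase gene Ddx21 by 0.60 ± 0.09 and Nolc1, a snoRNP chaperone, by 0.55 ± 0.09 (adjusted p = 0.000248, 6.31e-05 and 0.000273). Npm1 rose by 0.33 ± 0.07 (adjusted p = 0.00315). Ncl did not pass: it read 11.43, 11.27, 11.36 and 11.38 with dox and 11.15, 11.12 and 11.21 without, a difference of 0.20 ± 0.07 (adjusted p = 0.0558) although the arrays did not overlap.

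Among the genes of the small subunit processome and 40S maturation, 11 of 14 rose. Tsr1, which acts late in 40S maturation, read 9.16, 9.14, 9.15 and 9.23 with dox and 8.58, 8.12 and 8.73 without. The dox arrays lay within 0.1 of each other and above the rest, and the difference was 0.70 ± 0.10 (adjusted p = 3.97e-05). Nop14, a processome component, read from 8.82 to 9.17 on the 4 dox arrays and 8.42, 8.13 and 8.42 without dox, again with no overlap. Nop14 rose by 0.64 ± 0.09 (adjusted p = 2.52e-05), and the processome genes Wdr43 and Wdr75 rose by 0.60 ± 0.10 and 0.56 ± 0.08. Not called were Utp18 (0.35 ± 0.12), Imp4 (0.24 ± 0.11) and Heatr1 (0.10 ± 0.09, adjusted p = 0.652), all of them processome genes. Heatr1 had the smallest difference of the 42, and its arrays overlapped (9.07 to 9.37 with dox, 9.04 to 9.26 without). Of 37 other genes of 40S assembly, 24 rose and none fell, led by Utp4 (0.71 ± 0.10), Rcl1 (0.65 ± 0.13) and Nol11 (0.62 ± 0.10).

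In 60S assembly 8 of 13 measured genes rose. Wdr12, a member of the PeBoW complex with Pes1 and Bop1, had the largest difference of the module. It read 9.98, 9.73, 9.86 and 9.90 with dox and 9.15, 8.72 and 9.20 without, so that all dox arrays were higher, by 0.84 ± 0.12 (adjusted p = 3.7e-05). A second probe set of Wdr12 gave 0.79 (adjusted p = 1.19e-05). Its partners moved less: Bop1 rose by 0.43 ± 0.09 (adjusted p = 0.0017), and Pes1 differed by 0.26 ± 0.10 and was not called (adjusted p = 0.128). Noc3l rose by 0.70 ± 0.10 and Gnl3, which encodes the nucleolar GTPase nucleostemin, by 0.66 ± 0.10 (adjusted p = 3.85e-05 and 4.58e-05). Also not called were Rrs1 (0.35 ± 0.13), Grwd1 (0.33 ± 0.12), Rrp1b (0.29 ± 0.12) and Ebna1bp2 (0.27 ± 0.10). Among 35 other 60S assembly genes 17 rose and none fell, led by Mdn1 (0.72 ± 0.10), an ATPase that remodels the pre-60S particle, Rrp15 (0.63 ± 0.10) and Nifk (0.57 ± 0.10). Pus7, a pseudouridine synthase that works without a guide RNA, rose by 0.52 ± 0.15 (adjusted p = 0.02), while its second probe set read 0.26 (adjusted p = 0.123).

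Within lines the direction held in all 3 GMP lines that were measured both ways, with a median dox difference over the 42 genes of 0.42 in B6-2, 0.67 in B6-3 and 0.28 in F6-6. All 42 genes were higher with dox in B6-2 and in B6-3, and 40 in F6-6. Wdr12 differed by 0.82, 1.02 and 0.66 in these lines, and Nop56 by 0.54, 1.11 and 0.43. Line B6-3 thus had the largest difference of both genes.

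**Figure D2:**
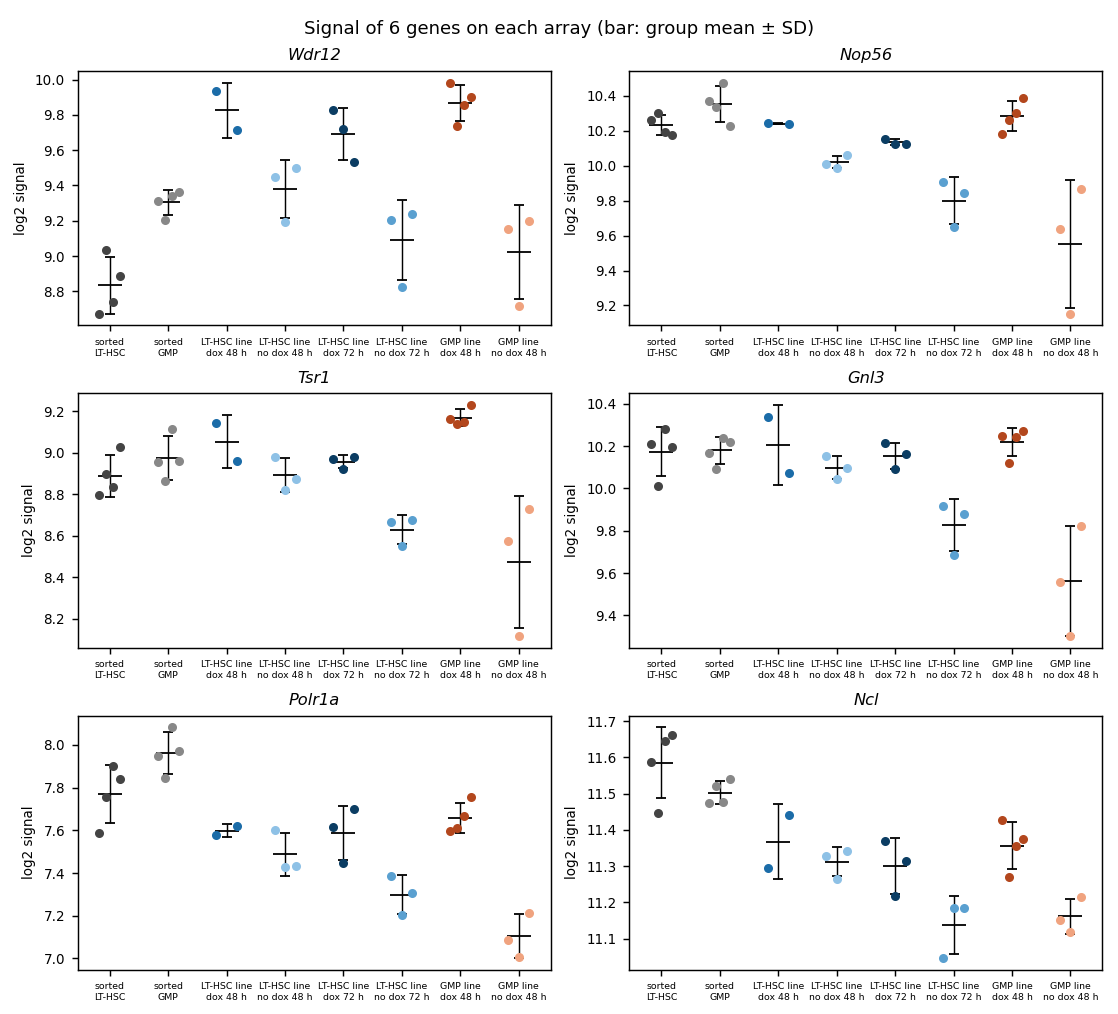
Log2 signal of Wdr12, Nop56, Tsr1, Gnl3, Polr1a and Ncl on each array, by group, with points for arrays and bars for the group mean ± SD (vertical scales differ between panels). In GMP lines every dox point lies above every point without dox in all 6 panels, and Ncl, whose difference was 0.20 there, is highest in sorted LT-HSC.

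Genes outside the module were read for comparison. None of 11 cytosolic ribosomal protein genes was called in GMP lines (median difference 0.08). Of 15 cell cycle genes, Mcm6 rose by 0.26 ± 0.08 and Mki67 fell by 0.33 ± 0.10 (adjusted p = 0.0236 and 0.0248), with a median of 0.00 over the list. Of 9 RNA exosome genes, 4 rose and none fell, led by Exosc2 (0.62 ± 0.11), Exosc1 (0.54 ± 0.10) and Exosc5 (0.48 ± 0.15). In the MYC network, 1 of 11 genes rose and 2 fell. Myc read 10.07, 10.35, 10.49 and 10.23 with dox and 9.71, 9.50 and 10.15 without, and rose by 0.50 ± 0.11 (adjusted p = 0.0032). The groups overlapped, since the lowest dox array lay below the highest array without dox. Mxd1, whose protein competes with MYC for MAX, fell by 0.78 ± 0.12 (adjusted p = 7.96e-05), and Mxi1, of the same family, fell by 0.42 ± 0.14 (adjusted p = 0.0498). All 4 dox arrays of Mxd1 (6.50 to 7.01) lay below those without dox (7.39 to 7.72).

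**Figure D3:**
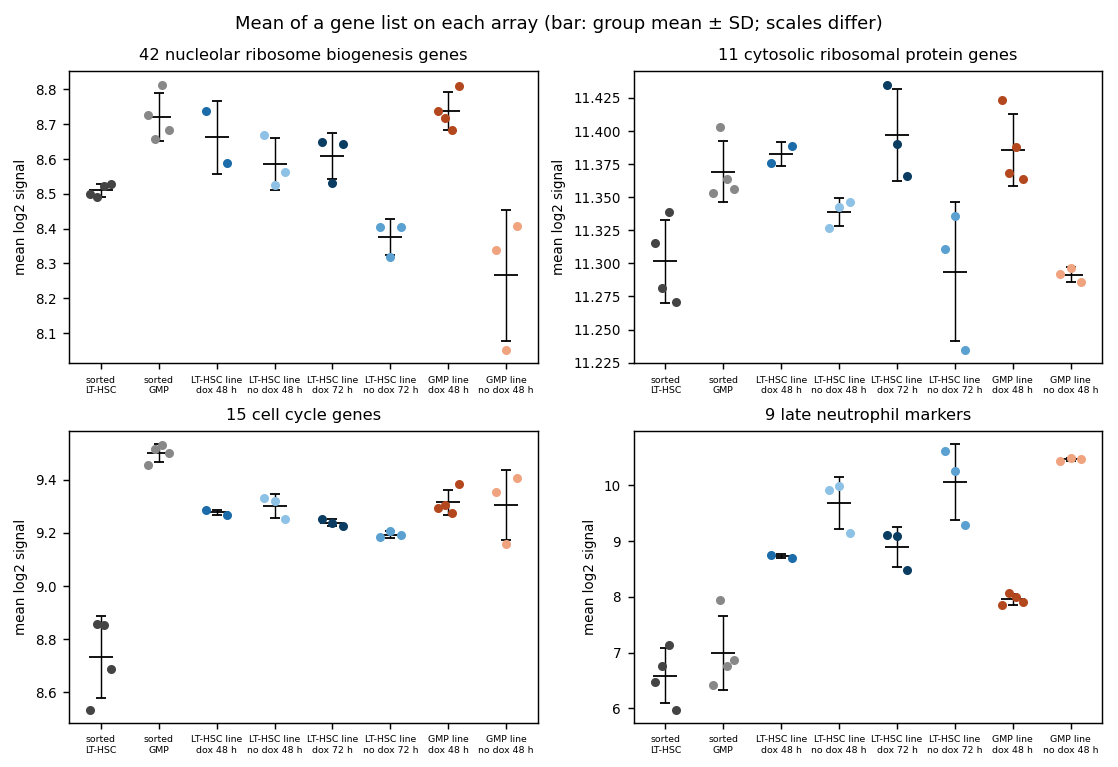
Mean log2 signal of the 42 module genes, 11 cytosolic ribosomal protein genes, 15 cell cycle genes and 9 late neutrophil markers on each array, by group, with bars for the group mean ± SD (vertical scales differ between panels). In GMP lines the module lies at 8.68 to 8.81 with dox and at 8.05 to 8.41 without, while the late neutrophil markers lie at 7.86 to 8.07 with dox and at 10.4 to 10.5 without.

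LT-HSC lines differed less with dox. At 48 h none of the 42 genes was called in either direction by limma, where 0.155% of all genes were called higher and 0.286% lower. At an unadjusted p under 0.05 there was 1 module gene, against 1456 of all 19937 genes. The median difference was 0.07, with 34 of 42 positive. Wdr12 differed most, reading 9.94 and 9.72 with dox and 9.45, 9.19 and 9.50 without, with no overlap, by 0.45 ± 0.14 (adjusted p = 0.277). Next were Nop56 (0.22 ± 0.13) and Mybbp1a (0.22 ± 0.12). The other probe set of Wdr12 gave 0.25 (adjusted p = 0.684). The dox group held 2 arrays and no B6-1 array. Within lines the median was 0.03 in B6-2 and 0.07 in B6-3, each with 28 of 42 genes higher.

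At 72 h, 9 of 42 genes were called higher with dox in LT-HSC lines and none lower, where 3.43% of all genes were called higher and 3.72% lower. The median difference was 0.22 against -0.03 over all genes, and 40 of 42 were positive. All dox arrays lay above all arrays without dox for 27 of the 42, against 11.2% of all genes. The 9 genes were drawn from most of the roles: Polr1a of Pol I, Nop58 of box C/D, Ddx21 and Mybbp1a of the nucleolar regulators, Wdr75 of the processome, Wdr12, Noc3l and Ddx18 of 60S assembly, and Pus7. None of the 3 box H/ACA genes passed, with Dkc1 at 0.37 ± 0.11 (adjusted p = 0.0509). Fits with the line as a fixed or a random block called 14, and the count was 3 without the B6-2 dox array and 2 without the B6-1 dox array.

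Pus7 had the largest difference at 72 h, reading 7.47, 7.28 and 7.44 with dox and 6.84, 6.76 and 6.72 without. All dox arrays were higher, by 0.62 ± 0.16 (adjusted p = 0.0141), while the other probe set of Pus7 gave 0.27 (adjusted p = 0.168). Wdr12 read 9.83, 9.72 and 9.54 with dox and 9.20, 8.83 and 9.24 without, and rose by 0.60 ± 0.13 (adjusted p = 0.00423; 0.63 in the other probe set, adjusted p = 0.000678). No array overlapped for either gene. Mybbp1a rose by 0.51 ± 0.11, Noc3l by 0.44 ± 0.11, Ddx21 by 0.37 ± 0.10 and Wdr75 by 0.35 ± 0.09 (adjusted p = 0.00526, 0.0113, 0.0185 and 0.0178). Nop58 rose by 0.34 ± 0.09, Ddx18 by 0.33 ± 0.09 and Polr1a by 0.29 ± 0.09 (adjusted p = 0.0218, 0.0257 and 0.0467), and the other probe set of Ddx18 gave 0.29 (adjusted p = 0.0587). Heatr1 and Grwd1, an assembly factor of 60S, were the only genes of the 42 with a negative difference, each -0.10. Within lines the median was 0.25 in B6-2, 0.17 in B6-3 and 0.24 in B6-1, with 40, 39 and 37 of 42 genes higher.

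Outside the module at 72 h, 7 of 37 other 40S genes and 6 of 35 other 60S genes rose and none fell, with Mdn1 at 0.53 ± 0.10 and Rcl1 at 0.52 ± 0.14 as the largest. No other Pol I gene and no ribosomal protein gene was called. Mxd1 fell by 0.50 ± 0.13 (adjusted p = 0.0167), and Myc differed by 0.23 ± 0.12 and was not called (adjusted p = 0.275). Late neutrophil markers were lower for 4 of 9 (mean 8.48 to 9.11 with dox, 9.29 to 10.6 without) and monocyte and macrophage markers for 5 of 7 (mean 8.11 to 8.33 and 9.27 to 9.88). Their part in the module's difference was not tested.

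**Figure D4:**
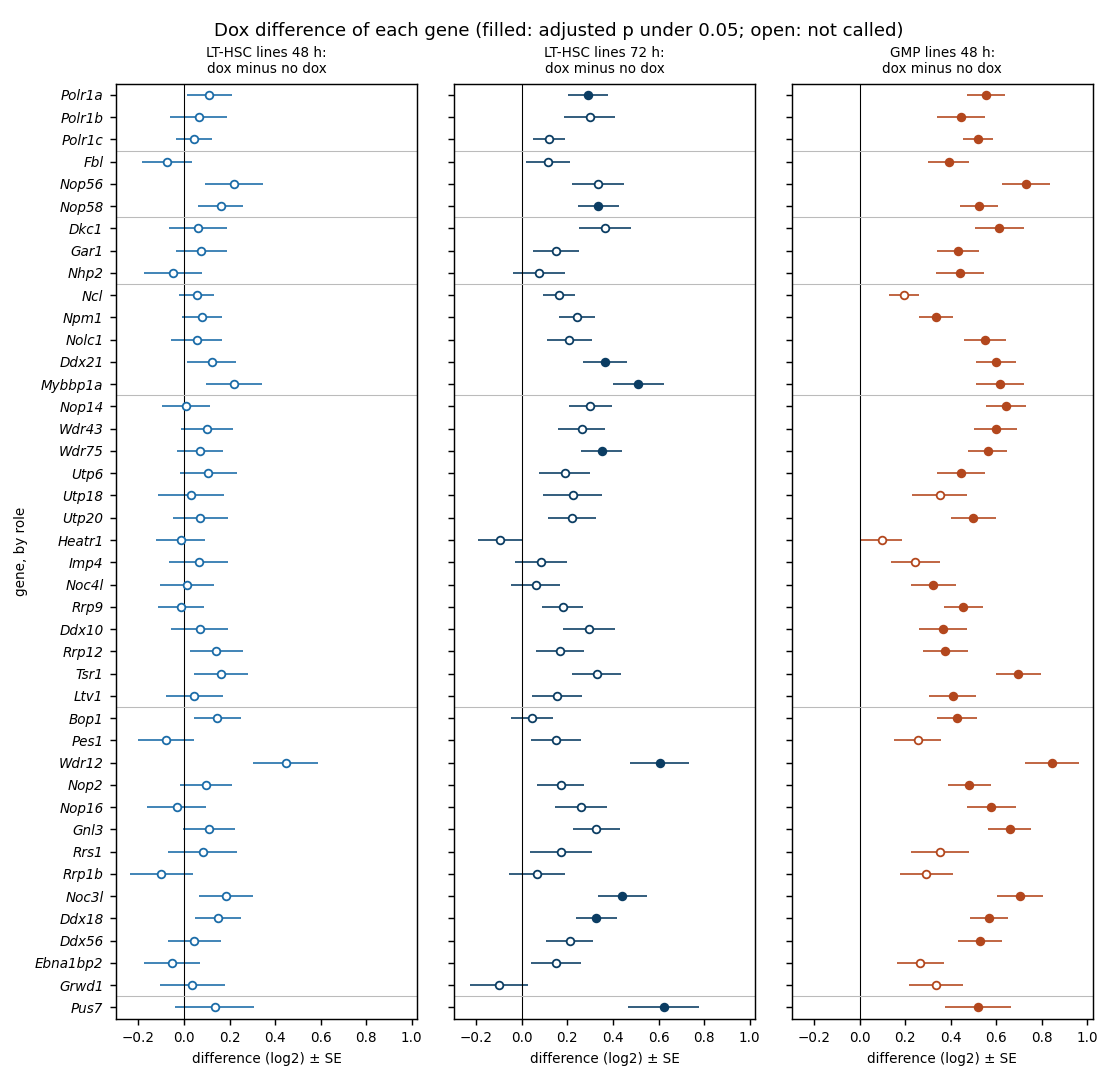
Difference between dox and no dox for each of the 42 genes (rows, by role) in LT-HSC lines at 48 h and 72 h and in GMP lines at 48 h, as log2 difference ± SE of the fit, with filled points for an adjusted p under 0.05. No point is filled at 48 h in LT-HSC lines, 9 are filled at 72 h, and 33 are filled in GMP lines.

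The dox differences were compared directly. At 48 h the difference in GMP lines was greater than that in LT-HSC lines for all 42 genes, by a median of 0.40, but 2 genes were called, where 0.0702% of all genes were called higher and 0.161% lower in this contrast. These were Nop14 (0.63 ± 0.14, adjusted p = 0.0487) and Polr1c (0.48 ± 0.10, adjusted p = 0.0486). With the line as a fixed block neither was called (adjusted p = 0.0861 for Nop14 and 0.0915 for Polr1c), while both were with the line as a random block (adjusted p = 0.0356 and 0.0342). Polr1c read 8.62 and 8.62 with dox and 8.61, 8.48 and 8.62 without in LT-HSC lines, and 8.57, 8.77, 8.58 and 8.67 against 8.13, 8.12 and 8.13 in GMP lines. Of the 4 groups, the one without dox in GMP lines stood apart. At an unadjusted p under 0.05 there were 29 module genes of 42, against 1742 of 19937 genes.

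Between 72 h and 48 h the dox differences of LT-HSC lines were not told apart by limma for any of the 42 genes, where 0% of all genes were called (2 module genes and 1132 of all genes at an unadjusted p under 0.05; median 0.17). Without dox, 72 h arrays read lower than 48 h arrays for 41 of 42 genes, with a median of -0.22. None of these was called by limma, where 0.0602% of all genes were called lower and 0.12% higher, and 21 module genes had an unadjusted p under 0.05, against 2588 of all genes. Pus7 differed by -0.48 ± 0.16 (adjusted p = 0.206), and the smallest p was that of the processome gene Utp20, at -0.43 ± 0.11 (adjusted p = 0.114). With the line as a fixed block 2 of the 42 were called lower, and none with the line as a random block. The mean of the monocyte and macrophage markers was 8.84 to 9.12 at 48 h and 9.27 to 9.88 at 72 h, with none of the 7 called, and their part was not tested. With dox, the median difference between the times was -0.05, and no gene of the 42 or of all genes (0%) was called (1 and 450 at an unadjusted p under 0.05).

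The lines of each origin were then compared at 48 h. Without dox, 22 of 42 genes were called higher in LT-HSC than in GMP lines and none lower, where 3.52% of all genes were called higher and 3.28% lower. The median was 0.35, and all 42 were positive. All arrays of LT-HSC lines lay above all arrays of GMP lines for 28, against 11.9% of all genes. Gnl3 led with 0.54 ± 0.10 (adjusted p = 0.00143), followed by Pus7 (0.53 ± 0.16), Mybbp1a (0.48 ± 0.11) and Wdr43 (0.48 ± 0.10). All 3 box C/D genes passed, as did Polr1a (0.38 ± 0.09) and Polr1c (0.45 ± 0.07). The other probe sets of Fbl and Pus7 gave 0.11 and 0.21 and were not called (adjusted p = 0.702 and 0.35). The count fell to 7 without the B6-3 array of GMP lines, to 12 without the B6-2 or the B6-1 array of LT-HSC lines, and to 2 when the 2 groups were fitted alone. With dox, no gene of the 42 was called by limma, where 1.17% of all genes were called higher and 0.943% lower (median -0.07; 1 module gene and 1996 of all genes at an unadjusted p under 0.05). Myc was higher in LT-HSC lines without dox by 0.59 ± 0.12 (adjusted p = 0.00267). Late neutrophil markers had means of 9.15 to 9.98 in LT-HSC lines and 10.4 to 10.5 in GMP lines without dox, with 1 of 9 called lower in LT-HSC lines and none of 7 monocyte and macrophage markers called. Their part in the module's difference was not tested. Both comparisons use arrays that also enter the dox comparisons of these lines.

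Sorted GMP and sorted LT-HSC served as the normal counterparts. In GMP 18 of 42 genes were called higher and none lower, where 16.8% of all genes were called higher and 15.3% lower. The median difference was 0.18, with a range from -0.23 to 0.83. All GMP arrays lay above all LT-HSC arrays for 14 of the 42, against 16.1% of all genes. By role, 8 of 13 genes of 60S assembly and 7 of 14 of the processome and 40S maturation rose, but none of the 3 Pol I subunits. With quantile normalization, 11 rose and 1 fell, and the median was 0.09. Cell cycle genes rose for 14 of 15 (mean 8.53 to 8.86 in LT-HSC and 9.46 to 9.53 in GMP), and their part in the module's difference was not tested. All 7 HSC markers were lower and all 6 primary granule markers higher in GMP, as the labels of the cells say. Means of the measured erythroid (2 genes), B cell (4) and T cell (5) markers lay between 4.58 and 5.69 on all 26 arrays, under the array medians.

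Nhp2, a core protein of box H/ACA particles, differed most in sorted cells. It read 8.35, 8.35, 7.89 and 8.12 in LT-HSC and from 8.95 to 9.08 on the 4 GMP arrays, a difference of 0.83 ± 0.10 (adjusted p = 2.61e-07). The groups were far apart compared with their spread. The other H/ACA genes were not called (Dkc1 0.23 ± 0.10 and Gar1 0.14 ± 0.09). Noc4l, of the processome, rose by 0.55 ± 0.09, Pes1 by 0.51 ± 0.09, Ltv1, a 40S export and maturation factor, by 0.50 ± 0.10, Heatr1 by 0.48 ± 0.08 and Wdr12 by 0.47 ± 0.11 (adjusted p = 3.18e-05, 0.000118, 0.000157, 5.68e-05 and 0.00146). Heatr1 read 8.93, 9.13, 8.82 and 8.97 in LT-HSC and 9.50, 9.45, 9.42 and 9.39 in GMP. Heatr1 and Pes1, called here, were not called in any dox comparison.

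Fbl rose by 0.27 ± 0.08 in sorted GMP (adjusted p = 0.0152), while a second probe set of it read -0.01 (adjusted p = 0.945). Ddx18 rose by 0.21 ± 0.08 (adjusted p = 0.0432), and a second probe set of it read 0.11 (adjusted p = 0.358). The second probe set of Wdr12 read 0.29 (adjusted p = 0.0176). Differences near 0 were those of Nop14, Gnl3 and Npm1 (0.01 each) and of Rrp12 and Noc3l (-0.01 each). Outside the module, 19 of 37 other 40S genes rose and none fell, led by Mphosph10 (0.85 ± 0.08). Of 35 other 60S genes, 17 rose and 2 fell, with Ftsj3 at 0.86 ± 0.11. Of 9 exosome genes 6 rose, with Exosc9 at 0.78 ± 0.09. Myc did not differ beyond its error (-0.04 ± 0.10, adjusted p = 0.846), and Mycn, a related factor, was lower in GMP (difference -1.22 ± 0.13, adjusted p = 2.96e-08).

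Lines were set against the sorted cells of their origin, with the limit that culture, immortalization and sorting cannot be told apart in this comparison. GMP lines without dox were lower than sorted GMP for 34 of 42 genes and higher for none, where 12.7% of all genes were called lower and 10.8% higher. The median was -0.46. Mybbp1a fell by 0.87 ± 0.10, Polr1a by 0.86 ± 0.08 and Nop56 by 0.80 ± 0.11 (adjusted p = 9.06e-07, 3.63e-08 and 3.85e-06). Differences under 0.1 in size were found for Nhp2 (-0.05 ± 0.11), Rrs1 (-0.05 ± 0.13) and Pes1 (-0.04 ± 0.10), none of them called. Late neutrophil markers were higher than in sorted GMP for 8 of 9 (mean 10.4 to 10.5, and 6.41 to 7.94 in sorted GMP), and their part was not tested. With dox, 3 genes were higher and 2 lower than in sorted GMP, where 10% of all genes were called higher and 9.76% lower, and the median was 0.02. The higher genes were Wdr12 (0.56 ± 0.11), Nhp2 (0.39 ± 0.10) and Ddx18 (0.23 ± 0.08), and the lower ones Fbl (-0.31 ± 0.08) and Polr1a (-0.30 ± 0.08). With quantile normalization 2 were higher and 5 lower. A second probe set of Ddx18 read 0.17 and was not called (adjusted p = 0.144). Late neutrophil markers were higher for 4 of 9, and their part was not tested. These 2 comparisons share the sorted GMP arrays.

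LT-HSC lines at 48 h differed from sorted LT-HSC in both directions. With dox 11 genes were higher and 1 lower, where 14.6% of all genes were called higher and 14.6% lower. Without dox 10 were higher and 4 lower, where 17.1% were called higher and 18.1% lower. Both comparisons share the sorted LT-HSC arrays. Nhp2 (1.03 ± 0.12 with dox and 1.08 ± 0.11 without), Wdr12 (0.99 ± 0.14 and 0.55 ± 0.12) and Pes1 (0.59 ± 0.12 and 0.67 ± 0.10) were the largest of the higher genes. The second probe set of Wdr12 gave 0.64 with dox and 0.39 without (adjusted p = 9.3e-05 and 0.0032). The lower gene with dox was Ncl (-0.22 ± 0.07), and the 4 without dox were Nop58 (-0.39 ± 0.08), Noc3l (-0.34 ± 0.10), Polr1a (-0.28 ± 0.08) and Ncl (-0.27 ± 0.07). Fbl was not among them, but its second, dimmer probe set was lower in limma, by -0.41 with dox and -0.43 without (adjusted p = 0.00792 and 0.00158). With quantile normalization the split was 5 higher and 5 lower with dox, and 5 higher and 9 lower without. Without the B6-2 dox array, 3 genes were called with dox. Of 9 late neutrophil markers 6 were higher with dox and 8 without, and of 7 monocyte and macrophage markers 6 and 7. Their part was not tested.

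Over all 26 arrays the genes varied together to different degrees, as a description of arrays that share groups, lines and normalization. The median Pearson r between 2 genes was 0.61 (range -0.55 to 0.96), and 575 of 861 pairs had r above 0.5. Tsr1 followed the mean of the other genes most closely (r = 0.94, and 0.91 after the group means were removed), followed by Wdr75 (0.93 and 0.82). Pes1 (0.29 and 0.29), Nhp2 (0.31 and 0.58), Heatr1 (0.40 and 0.32) and Ncl (0.48 and 0.14) had the lowest r over all arrays. After the group means were removed the lowest were Npm1 (-0.05), Ncl (0.14) and Polr1c (0.22). Of genes outside every list, the 6 most like the module's mean over the 26 arrays were Nsun2 (r = 0.97), Pum3 (0.94), Pa2g4 (0.91), Cse1l (0.91), Ttc27 (0.90) and Ddx1 (0.90). Nsun2, an RNA cytosine methyltransferase gene, had group means from 8.42 in GMP lines without dox to 9.06 in the same lines with dox.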

How the data were processed

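Total RNA was amplified, labelled and hybridised to Affymetrix gene arrays, per the labels' protocols. The authors deposited a log2 signal for each of 34760 probe sets per array. The submitters' processing notes name R 3.1.1 and limma, and the steps before that (background, summary of probes, normalization) are not stated in the labels. Scale and range were read from the values. The annotation gave 21640 probe sets 1 symbol, 1321 several and 11799 none, and only the first were used, 1 per gene. One mean per group was fitted to all 26 arrays in limma 3.58.1 under R 4.3.3 (lmFit, contrasts.fit, eBayes), with 2-sided p-values adjusted over 19937 genes. The procedure was tested on simulated data. The number of arrays limits the precision.

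The module, its roles and the other lists were chosen with earlier results of these data known. Full values were given to called genes with the largest differences (up to 6 each way), to Pol I and snoRNP genes and to the smallest differences, with up to 3 called genes of each other list, Myc, and the 6 genes most alike. The labels call the replicates biological, but nothing says that sorted replicates came from separate animals, so those p-values measure only the spread between samples. Residuals of arrays of the same line correlated (r from 0.29 to 0.40 in GMP lines, 12 of 15 pairs over 0.1 in LT-HSC lines). For arrays of different lines, 0 of 9 pairs in GMP lines and 4 of 30 in LT-HSC lines were over 0.1. Deviations from a shared group mean are not independent, so neither are these pairs. The tags in the sample titles, read as line names, gave the pairing. Rows with several symbols, some of Npm1 among them, were left out. Alternatives were other probe set rules, quantile normalization, median centring, a filter on dim probe sets, fits of the compared groups alone, another prior, array weights, blocks and the omission of each array.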

Additional observations from a re-analysis of the deposited data

Results flagged for a closer look

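In groups of 4 arrays, 126 gene and group pairs were examined for a single array far from the rest, and 9 were found, where chance gives about 1 in 20. That count is close to the chance share, and genes read on the same arrays are not independent. In sorted LT-HSC, Utp20 was low on replicate 1 (7.47, others 7.70 to 7.72), Noc3l high on replicate 3 (8.24, lowest of the others 7.97) and Grwd1 low on replicate 4 (6.08, others 6.23 to 6.25). In sorted GMP, Nop2 and Noc3l were high on replicate 3 (7.90 and 8.17), and Ddx18 was high on replicate 1 (8.89). In GMP lines with dox, Gar1 was high in line B6-2 (8.96), Mybbp1a high in B6-1 (8.42) and Gnl3 low in B6-3 (10.1).

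The dox difference at 48 h was greater in GMP than in LT-HSC lines by the interaction term of limma for Polr1c (0.48, adjusted p = 0.0486) and Nop14 (0.63, adjusted p = 0.0487). Both adjusted p-values lie next to the threshold.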

How the results depend on the processing

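Counts are of the 42 genes. In GMP lines with against without dox, in sorted GMP against LT-HSC and in GMP lines without dox against sorted GMP, they stayed within 1.5 times the reported count under every alternative run; leaving out 1 array gave 23 to 35, 13 to 18 and 26 to 35. The 9 genes called at 72 h became 14 with the dim filter, the line as a replicate block or the line as a random block, 17 with array weights, 4 with only the groups compared, and 2 to 10 with 1 array left out. The 22 genes that differed by origin without dox became 2 with only those groups, and 7 to 22 with 1 array left out. LT-HSC lines with dox against sorted LT-HSC gave 5 in place of 12 with only those groups, 10 (5 higher and 5 lower) under quantile normalization, and 3 to 12 with 1 array left out. Without dox the split of the 14 calls (10 higher, 4 lower) turned under quantile normalization (14 calls, 5 higher and 9 lower), and 1 array left out gave 9 to 16, with 4 higher and 5 lower without the B6-2 array. GMP lines with dox against sorted GMP turned likewise under quantile normalization (7 calls, 2 higher and 5 lower); 1 array left out gave 4 to 5 calls, with 2 higher and 3 lower without sorted GMP replicate 4 or without the B6-1 array. Without dox, 72 h against 48 h gave 3 calls with array weights and 2 with the replicate block, all lower, in place of 0, and 0 with the line as a random block. The 2 interaction calls became 1 under quantile normalization or a trended and robust prior, 0 with median centring, only the groups compared or the replicate block, and were 2 with the random block and 0 to 3 with 1 array left out. The causes of these shifts were not tested. The dim filter left fewer tests (11591 genes), and leaving out groups or arrays left fewer arrays, but their part in the shifts was not tested either. The block changed no other count by over 1.5 times; sorted replicates share only a number (r from 0.02 to 0.06), and blocking on it gave 15 calls in place of 18. No gene of the module changed sign under an alternative when called; of the other named genes, Exosc3 in GMP lines with dox against sorted GMP turned to -0.047 with the mean of its probe sets. Signal near the array medians limits Rrp9, Bop1, Grwd1 and Rrp12.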
